A study of Mus musculus with 15 samples.

Results

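The genes described are 10 of the 38924 annotated genes of the deposited tables, chosen by symbol as the best known transcripts of the neutrophil granules. Camp, Ltf, Lcn2 and Ngp (4 genes) are stored in secondary granules, Mpo, Elane, Ctsg and Prtn3 (4 genes) in primary granules, and S100a8 and S100a9 (2 genes) encode a cytosolic protein pair. They were compared over 5 sorted mononuclear phagocyte (MP) subtypes of naïve mice, with 3 libraries each: splenic Ly6C+ monocytes, splenic CD8+ DCs (DC1), splenic CD4+ DCs (DC2), LN CD103+ DCs (DC1) and LN CD11b+ DCs (DC2). Each library held RNA of sorted cells pooled from 5 female C57BL/6 mice, labelled 6 to 8 weeks old, so p values measure the spread between such pools. Spleens and LNs came from separate cohorts, and monocytes were enriched with CD11b beads before the sort, so that cohort, enrichment and subtype cannot be told apart. Monocyte libraries were each sequenced in 2 runs and DC libraries in 1. Sequencing thus also cannot be told apart from the contrast of monocytes with DCs. Libraries held 4531243 to 10233914 reads counted on genes, and the monocyte libraries 4880322, 10233914 and 7523451.

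Neutrophils make their granule proteins in the bone marrow, one granule type after another. Promyelocytes make the primary (azurophil) granules with myeloperoxidase and the serine proteases, and myelocytes and metamyelocytes the secondary (specific) granules with lactoferrin, lipocalin and cathelicidin. Transcription of both sets ends as the cell matures, while S100a8 and S100a9 stay on in the mature neutrophil and are also made by classical monocytes. Primary granule genes are also on in the shared granulocyte and monocyte progenitors of the bone marrow. The transcription factor C/EBPε is known to drive the secondary granule genes, and C/EBPα, PU.1 and MYB the primary ones.

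The label of the sorted monocytes held against their markers. Of 12 monocyte markers, 11 were higher in them than in each of the 4 DC subtypes, against 9.35% of all 14456 genes tested (edgeR's quasi-likelihood test, Benjamini-Hochberg adjusted p below 0.05 in each of the 4 comparisons). None of 12 DC markers was higher, and 8 were lower than in each DC subtype, against 8.81% of all genes. Ly6c2 and Itgam encode proteins by which the monocytes were sorted or enriched. Itgax and the class II genes do so for DCs, so that these markers do not test the label. In bulk RNA, few cells with much of a transcript and many cells with little of it cannot be told apart.

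The windows before the start sites of these genes are shown because the transcripts were found together in the same subtype, and because the granule genes are known targets of C/EBP factors. All 10 genes had an entry in the RefSeq promoter table (build GRCm38.p6, that is mm10). For Ngp, Ltf, Lcn2, Camp, S100a9 and Mpo the 250 bases before the start of the RefSeq entry are printed 5′ to 3′ on the gene's own strand. The windows of S100a8, Elane, Ctsg and Prtn3, which held no C/EBP match, are not printed. Capitals mark the letters TTGCNNAA of the C/EBP consensus or their complement TTNNGCAA.
Ngp (chr9:110419558-110419807, plus strand): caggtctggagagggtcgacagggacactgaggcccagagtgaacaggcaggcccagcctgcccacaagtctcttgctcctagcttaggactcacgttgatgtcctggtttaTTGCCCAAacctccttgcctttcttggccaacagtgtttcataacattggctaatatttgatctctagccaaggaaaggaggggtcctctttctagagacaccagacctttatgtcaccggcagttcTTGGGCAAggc
Ltf (chr9:111019042-111019291, plus strand): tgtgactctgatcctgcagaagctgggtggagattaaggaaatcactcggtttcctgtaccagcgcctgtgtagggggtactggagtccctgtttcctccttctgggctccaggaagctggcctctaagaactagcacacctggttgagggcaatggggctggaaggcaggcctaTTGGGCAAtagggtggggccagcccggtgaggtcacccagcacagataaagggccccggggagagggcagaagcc
Lcn2 (chr2:32387740-32387989, minus strand): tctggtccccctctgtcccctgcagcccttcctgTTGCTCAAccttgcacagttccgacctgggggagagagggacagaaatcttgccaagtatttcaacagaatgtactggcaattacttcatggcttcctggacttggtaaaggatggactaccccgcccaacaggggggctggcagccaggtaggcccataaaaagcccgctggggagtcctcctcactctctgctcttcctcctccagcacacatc
Camp (chr9:109849457-109849706, minus strand): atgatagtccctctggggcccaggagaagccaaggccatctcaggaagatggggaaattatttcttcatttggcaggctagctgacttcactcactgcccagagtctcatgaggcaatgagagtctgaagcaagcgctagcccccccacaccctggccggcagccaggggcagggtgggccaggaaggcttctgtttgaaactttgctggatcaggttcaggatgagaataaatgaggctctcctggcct
S100a9 (chr3:90695722-90695971, minus strand): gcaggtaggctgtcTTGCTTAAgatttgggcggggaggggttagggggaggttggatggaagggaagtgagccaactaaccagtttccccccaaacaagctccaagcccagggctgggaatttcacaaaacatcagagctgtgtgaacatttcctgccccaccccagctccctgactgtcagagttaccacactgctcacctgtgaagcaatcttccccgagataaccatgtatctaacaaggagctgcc
Mpo (chr11:87793534-87793783, plus strand): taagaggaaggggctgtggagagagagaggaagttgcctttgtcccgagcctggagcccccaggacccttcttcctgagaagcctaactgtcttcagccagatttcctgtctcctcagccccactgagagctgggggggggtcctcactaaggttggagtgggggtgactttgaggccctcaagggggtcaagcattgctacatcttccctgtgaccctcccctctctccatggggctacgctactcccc
In these windows, Ngp held 2 matches, Ltf, Lcn2 and S100a9 held 1 each, and the other 6 genes, Camp and Mpo among them, held none. Of all 32851 promoters of the table, 9.56% held at least 1 match. The letters GAGGAA or TTCCTC, the core of a PU.1 site, were present in 7 of the 10 genes (S100a8, Ltf, Lcn2 and the 4 primary granule genes) and in 23.3% of all promoters. TATAAA or TTTATA stood before S100a8 and Ctsg and in 12.4% of all promoters. A match is a description of the letters only. The RefSeq starts and those of the annotation used for the gene coordinates differed for 4 genes, so that 58 bases of the windows of Ngp and Lcn2, 203 of that of Mpo and all 250 of that of Prtn3 lay inside the gene as annotated, among them 1 of the 2 matches of Ngp.

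By gene order, 3 of the 4 secondary granule genes lie on chromosome 9 of mm10: Camp (ENSMUSG00000038357, chr9:109847375-109849456), Ngp (ENSMUSG00000032484, chr9:110419750-110423010) and Ltf (ENSMUSG00000032496, chr9:111019292-111042766), within 1195 kb. Lcn2 (ENSMUSG00000026822, chr2:32384633-32387797) lies alone. S100a8 (ENSMUSG00000056054, chr3:90669071-90670034) and S100a9 (ENSMUSG00000056071, chr3:90692632-90695721) are 22597 bases apart. Prtn3 (ENSMUSG00000057729, chr10:79874476-79883174) and Elane (ENSMUSG00000020125, chr10:79886312-79888216) are 3137 bases apart. Mpo (ENSMUSG00000009350, chr11:87793581-87804413) and Ctsg (ENSMUSG00000040314, chr14:56099881-56102574) have no other of these genes beside them. Reads were counted without strand and for each gene they overlapped, and 14.95% of the exon bases of Mpo are shared with Gm11505 and 9.18% of those of Prtn3 with Plppr3. The exons of the other 8 genes overlap no other gene.

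Secondary granule transcripts had from 97 (Lcn2) to 1023 (Ngp) counts in each monocyte library and were at or near 0 in the DCs. Ngp, neutrophilic granule protein of the cystatin-like family, had 421, 828 and 1023 counts in the 3 monocyte libraries, or 82.8, 80.5 and 134.6 CPM (counts scaled to library size and TMM factors). In the 12 DC libraries it had between 0 and 5 counts each, 15 in all, and Ngp was 573-fold higher in monocytes (95% counting interval 347 to 1025; adjusted p = 2.0e-13 against the mean of the 4 DC subtypes, edgeR). The lowest monocyte library was at 80.5 CPM and the highest DC library, splenic CD8+ DC replicate 3, at 0.573 CPM. The adjusted p belongs to the edgeR fold change against that mean and not to the ratio, here and for the genes below. In log2 this fold change was 9.94 (standard error 0.32) for Ngp, 9.36 (0.49) for Ltf, 9.20 (0.48) for Camp and 8.41 (0.66) for Lcn2. For Mpo it was 7.47 (0.84) and for Prtn3 7.22 (0.71).

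Ltf, lactoferrin, which binds iron, had 248, 437 and 443 counts in monocytes (48.8, 42.5 and 58.3 CPM). In DCs it was counted in 3 of 12 libraries only, with 6 counts in each of splenic CD8+ DC replicates 2 and 3 and 4 in splenic CD4+ DC replicate 3. The ratio of monocytes to DCs was 269.6 (165 to 473; adjusted p = 4.9e-10, edgeR).

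Camp, the antimicrobial cathelicidin, had 124, 166 and 270 counts (24.4, 16.1 and 35.5 CPM) against 4 counts in all DC libraries together. Its ratio was 548 (213 to 2020; adjusted p = 4.3e-10, edgeR), and 986 without splenic CD8+ DC replicate 3, which held 2 of those 4 counts. Lcn2, lipocalin 2, which withholds iron from bacteria by binding their siderophores, had 97, 175 and 214 counts (19.1, 17.01 and 28.2 CPM). Its 11 DC counts fell in 2 libraries, 8 of them in splenic CD8+ DC replicate 2 (1.08 CPM) and 3 in LN CD103+ DC replicate 2. The ratio of Lcn2 was 168 (93.3 to 339.7; adjusted p = 4.8e-08, edgeR), and 565 without splenic CD8+ DC replicate 2.

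S100a8 and S100a9, whose products form the calcium-binding dimer calprotectin, had 182, 378 and 404 counts and 149, 380 and 361 counts in the monocyte libraries. In CPM these were 35.8, 36.7 and 53.2 for S100a8 and 29.3, 36.9 and 47.5 for S100a9. DCs held 4 counts of S100a8, in 4 different libraries, and 7 of S100a9, which lay in splenic CD8+ DC replicates 2 (5 counts) and 3 (2 counts). The ratio of S100a9 moved from 469 (227 to 1169) to 1500 without splenic CD8+ DC replicate 2.

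Primary granule transcripts were rarer in monocytes, with 0 to 54 counts in a library, and 3 of the 4 genes had none in the 12 DC libraries. Mpo, myeloperoxidase, which makes hypochlorous acid, had 17, 12 and 35 counts in monocytes (3.34, 1.17 and 4.605 CPM). With 0 counts in DCs, a floor of 3 counts over the group allows up to 0.0347 CPM there. Against that floor, mean Mpo in monocytes was at least 87.6-fold higher (adjusted p = 2.3e-05, edgeR), or 65.0-fold without monocyte replicate 3. Such folds are lower bounds for the DC counts only, without the counting error and spread of the monocyte libraries. DESeq2 did not call Mpo (adjusted p = 0.0997), while its adjusted p ran from 1.3e-14 to 0.0997 over 25 alternatives in which it was tested.

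Elane, neutrophil elastase, had 9, 5 and 28 counts (1.77, 0.486 and 3.68 CPM) against 0 in DCs. By the same floor its mean was at least 57.1-fold higher, or at least 32.5-fold without monocyte replicate 3. It exceeded 1 CPM in 2 libraries and so was not tested with the filter on low counts. Without the filter, and with the 12 DC libraries taken as 1 group, its adjusted p was 0.0043 (edgeR; 3.3e-10 with a mean per subtype).

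Prtn3, proteinase 3, had 12, 53 and 54 counts (2.36, 5.15 and 7.10 CPM). It was the only primary granule gene counted in DCs, with 2 counts in LN CD103+ DC replicate 1 and 3 in replicate 2. Its ratio was 84.3 (35.1 to 264; adjusted p = 2.0e-06, edgeR), 128.9 without LN CD103+ DC replicate 1 and 190.0 without replicate 2. Ctsg, cathepsin G, had 1, 2 and 0 counts in monocytes and 0 in DCs, so that no fold is given, and without the filter its adjusted p was 0.067 with the DC libraries as 1 group and 0.063 with a mean per subtype (edgeR). Its pooled interval in monocytes, 0.0269 to 0.382 CPM, reached below the 0.0347 CPM that 0 counts allow in DCs, and a difference was not detectable at this depth.

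**Figure D1:**
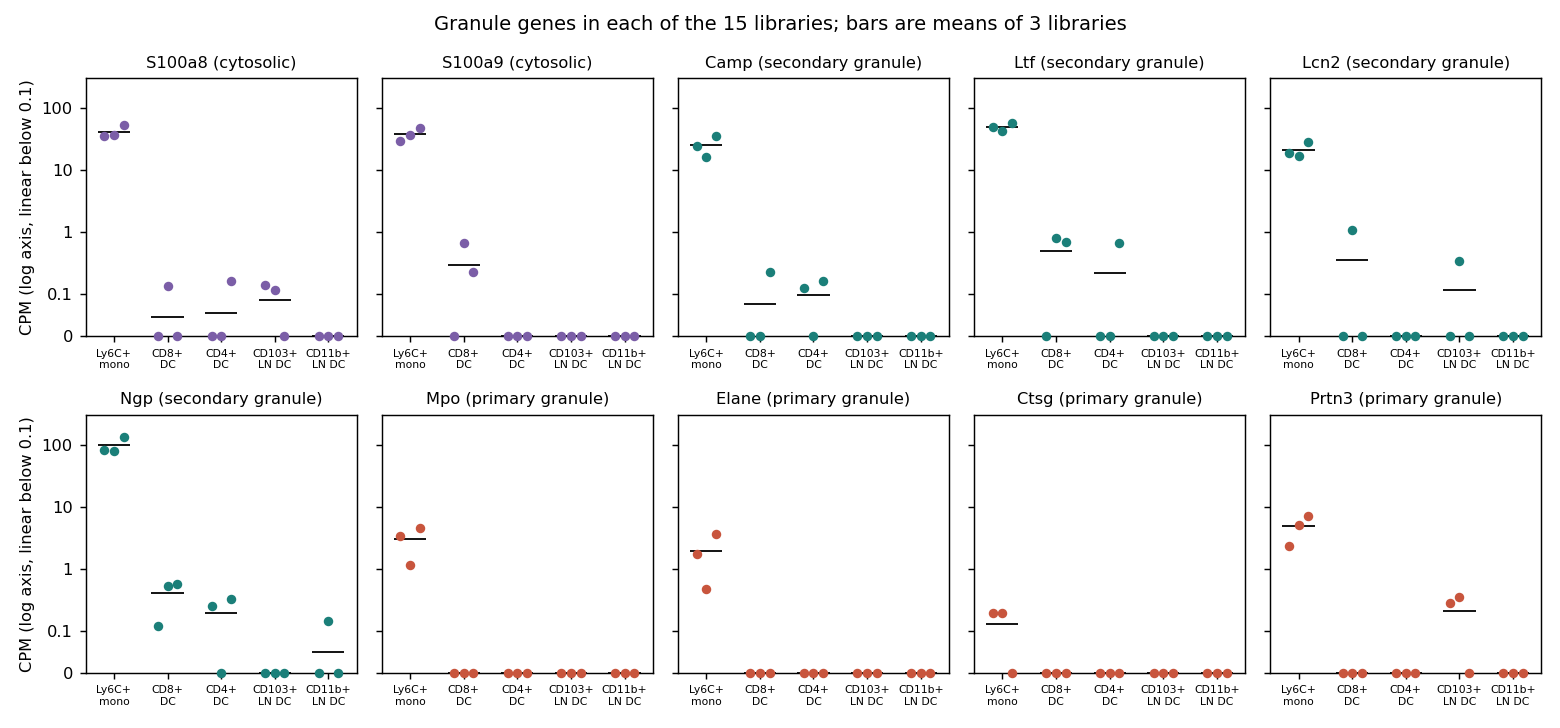
CPM of each of the 10 genes (vertical axes, logarithmic above 0.1 and linear below) in the 15 libraries, grouped by subtype; points are libraries and bars the means of 3. For 9 genes each monocyte point lies above all 12 DC points, and for Ctsg the monocyte points are at 0.197, 0.194 and 0 CPM.

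The calls were set against those of all genes. The filter of more than 1 CPM in at least 3 libraries was passed by 8 of the 10 genes, and each passed through the monocyte libraries, so that these genes had to differ. These 8 were each higher in monocytes than the mean of the DC subtypes, as were 26.4% of the 14456 genes tested. They were also higher in each comparison with 1 subtype, where 20.4% (splenic CD8+ DCs), 23.8% (splenic CD4+ DCs), 24.6% (LN CD103+ DCs) and 21.3% (LN CD11b+ DCs) of all genes were. These comparisons share the monocyte libraries. In 9 of the 10 genes every monocyte library exceeded every DC library, against 9.17% of the 23169 genes with a count. By DESeq2, Mpo was not called against any of the 4 subtypes (adjusted p from 0.21 to 0.24), nor Lcn2 against splenic CD8+ DCs (adjusted p = 0.14) and LN CD103+ DCs (adjusted p = 0.053).

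**Figure D2:**
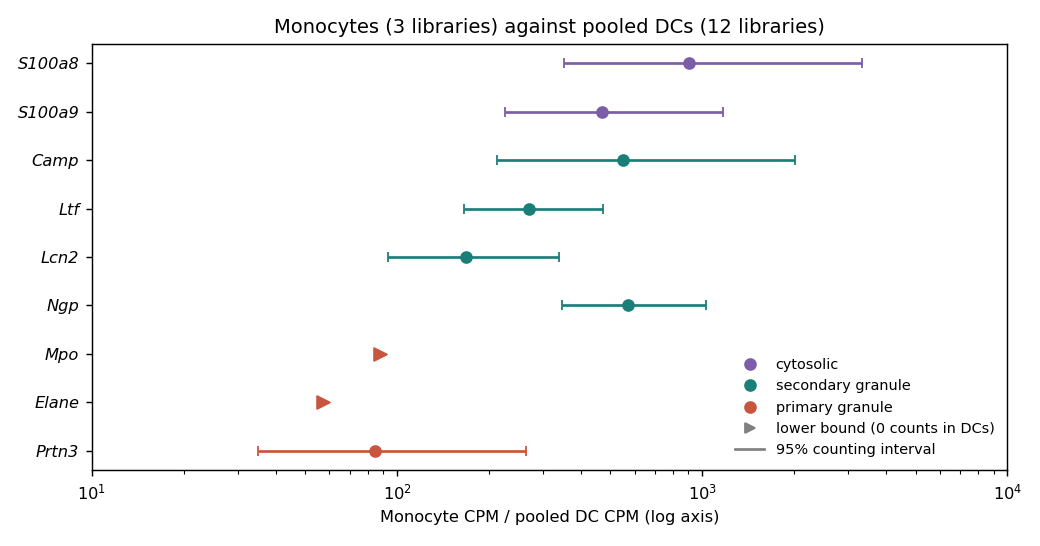
Ratio of the mean monocyte CPM to the pooled CPM of the 12 DC libraries (horizontal logarithmic axis) for 9 genes. Points carry 95% counting intervals, which cover counting error only. Arrows, for genes with 0 counts in DCs, are lower bounds for the DC counts only. Ratios ran from 84.3 for Prtn3 to 906 for S100a8.

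Within monocytes, levels per transcript length (TPM) were highest for S100a8, Ngp and S100a9 and lowest for the primary granule genes. S100a8 was at 276 ± 63.1 TPM (SD, n = 3), Ngp at 211 ± 64.3 and S100a9 at 187 ± 42.8. Ngp and S100a9 did not differ beyond their spread, as Ngp was the higher in replicates 1 and 3 and S100a9 in replicate 2. Camp followed at 109 ± 42.3 TPM, Ltf at 47.0 ± 7.90 and Lcn2 at 24.03 ± 6.66, in this order in each library. The primary granule genes Prtn3 (7.21 ± 3.46 TPM), Elane (5.58 ± 4.50), Mpo (2.31 ± 1.33) and Ctsg (0.337 ± 0.292) came last. Prtn3 and Elane changed places in replicate 1, with 3.64 and 5.14 TPM.

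In this set, the 4 secondary and the 4 primary granule genes did not overlap in level in monocytes. Other genes of these classes were not part of this comparison. Lcn2, the lowest secondary granule gene, had 22.1, 18.5 and 31.4 TPM in the 3 libraries, and Prtn3, the highest primary granule gene by its mean, 3.64, 7.46 and 10.5 TPM. Summed over 4 genes each, secondary granule transcripts were at 360, 291 and 522 TPM and primary ones at 11.9, 10.1 and 24.3 TPM. The ratio of the sums was 30.2, 28.7 and 21.5, and 25.3 for the ratio of the means. Leaving out the highest gene of each class, Ngp and Prtn3, gave ratios from 17.3 to 46.8. A ranking by mean monocyte TPM over the 17798 genes counted there placed S100a8 at 522 and Ngp at 711, and Prtn3, the best placed primary granule gene, at 8975. All 10 genes together took 0.0238% to 0.0376% of the counts of a monocyte library.

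**Figure D3:**
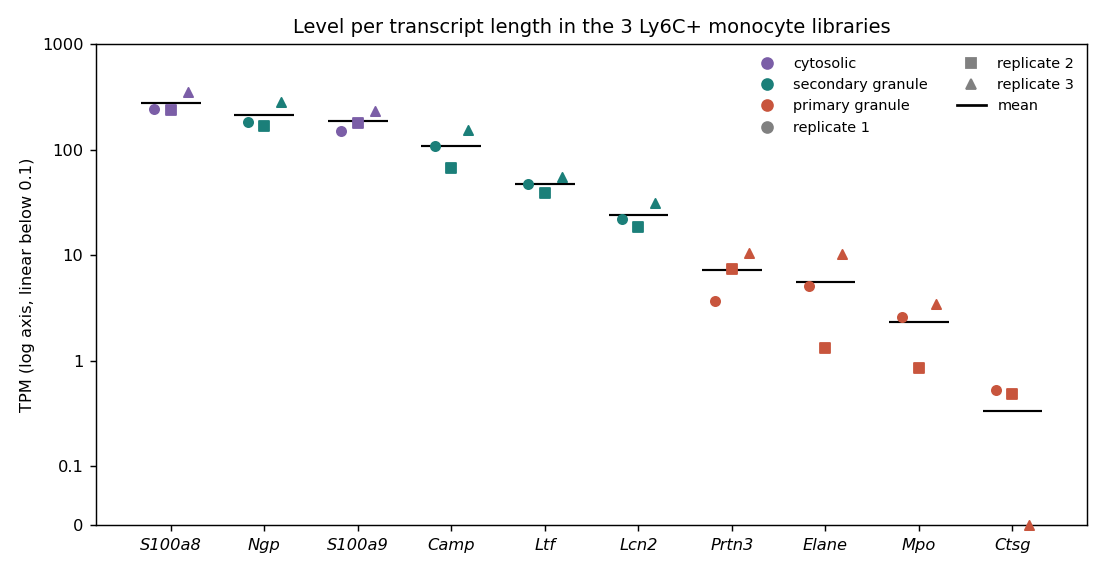
TPM of the 10 genes in the 3 monocyte libraries (vertical axis, logarithmic above 0.1 and linear below), ordered by mean; colours are the classes, symbols the replicates and bars the means. The 4 secondary granule genes lie between 18.5 and 284 TPM and the 4 primary ones between 0 and 10.5 TPM.

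The monocyte libraries differed among themselves. Replicate 3 was the highest in CPM for 9 of the 10 genes, Ctsg being the exception, while it was the highest for 32.1% of all genes tested. Replicate 2 was the lowest for 6 of the 10 genes and for 30.9% of all genes tested. The highest library exceeded the lowest by 1.37-fold for Ltf, 1.48-fold for S100a8, 1.62-fold for S100a9, 1.66-fold for Lcn2, 1.67-fold for Ngp and 2.20-fold for Camp. The primary granule genes spread more widely, by 3.01-fold for Prtn3, 3.95-fold for Mpo and 7.58-fold for Elane. Elane had 0.486 CPM (exact Poisson 95% interval 0.158 to 1.13) in replicate 2 and 3.68 CPM (2.45 to 5.32) in replicate 3, intervals that do not overlap. Neither do those of Mpo in the same libraries, 0.603 to 2.04 and 3.21 to 6.40 CPM. Mpo and Elane had their lowest level in replicate 2, but Prtn3 was lowest in replicate 1, with 1.22 to 4.12 CPM against 3.86 to 6.74 CPM in replicate 2 by their intervals. Each monocyte library was sequenced in 2 runs, and for the 6 genes with at least 50 counts in the first run the level in the second was 0.820 to 1.27 times that in the first. The runs differed more for the primary granule genes, which had few counts in each. Mpo, with 4 to 25 counts in a run, had 0.384, 0.474 and 2.39 times its first level in the second run of replicates 1, 2 and 3, and in the first run it was highest in replicate 1, at 5.12 CPM against 2.72 in replicate 3. Elane, with 1 to 18 counts in a run, had 1.84, 0.237 and 0.531 times its first level. Both were lowest in replicate 2 in each run.

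**Figure D4:**
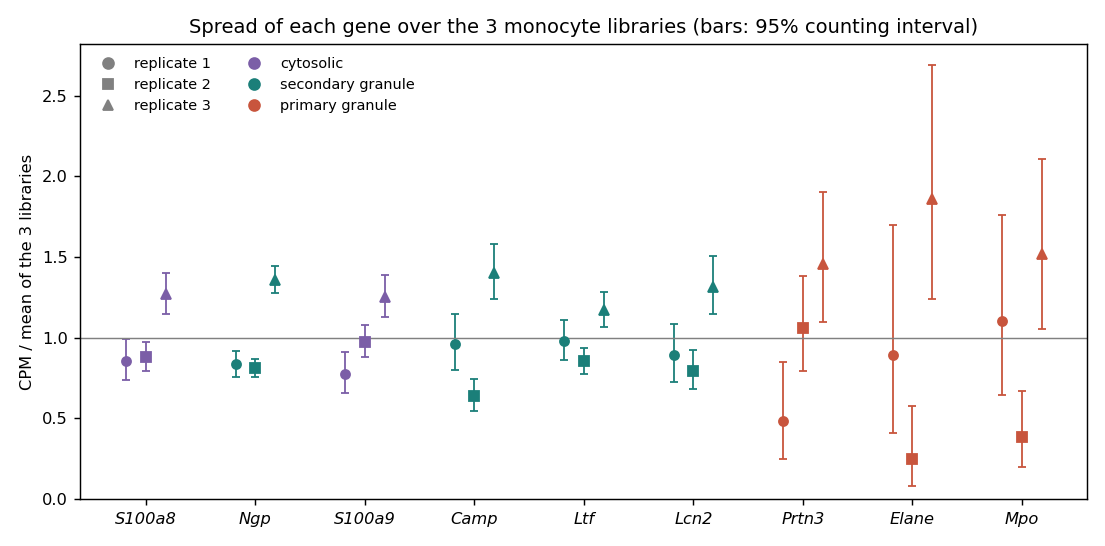
Level of each gene in the 3 monocyte libraries as a share of its mean (vertical axis; CPM over mean CPM), with exact Poisson 95% intervals; symbols are replicates and colours classes, and Ctsg is left out. Replicate 3 is the highest for all 9 genes shown, and the range is widest for Elane, from 0.486 to 3.68 CPM.

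Traces in DCs lay mostly in spleen. The 10 genes had 40 counts in splenic CD8+ DCs (1, 24 and 15 by replicate), 11 in splenic CD4+ DCs (3, 0 and 8), 10 in LN CD103+ DCs (3, 7 and 0) and 1 in LN CD11b+ DCs, against 6528 in monocytes. In splenic CD8+ DCs 32 of the 40 counts were secondary granule transcripts, 8 were S100a9 or S100a8, and none was a primary granule transcript. In monocytes only 228 of the 6528 counts were primary granule transcripts, so that 40 counts are too few to show a different share. Of F13a1, a monocyte gene with 40388 counts in the monocyte libraries, splenic CD8+ DCs held 0 counts. Of other monocyte genes, splenic CD8+ DCs held 3 counts of Chil3, 268 of Ly6c2 and 2469 of Lyz2. Monocytes held 18193, 18829 and 444630 of these. LN CD11b+ DCs held 334 counts of F13a1 and 359 of Chil3, but 1 of the granule genes. Granule gene counts per 1000 F13a1 counts were 162 in monocytes and 2.99 in LN CD11b+ DCs, but 714 in LN CD103+ DCs and 5500 in splenic CD4+ DCs, where F13a1 had only 14 and 2 counts. The source of the traces was not tested.

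Mature neutrophil genes were looked at beside these results, since the granule genes are best known from neutrophils. Of 12 neutrophil markers, 8 passed the filter and 4 were higher in monocytes than in each DC subtype (9.35% of all genes were), with a median log2 fold change of 5.63 against -0.06 over all genes. These 4 were Csf3r, the G-CSF receptor (386 ± 14.4 CPM), Cd177, a neutrophil surface protein (387 ± 48.1 CPM), Mmp8, the collagenase of secondary granules (96.1 ± 18.3 CPM), and Trem1 (42.6 ± 8.15 CPM). Against the mean of the DC subtypes, 6 of the 8 were higher and 0 lower. By DC subtype, log2 fold changes ran from 1.84 to 8.01 for Clec4d and from -1.56 to 2.75 for Il1r2. Several other markers of the list were at or near 0 in monocytes. Ly6g, whose reads can be shared with near copies of its family, had 2, 0 and 2 counts, Retnlg 0, 4 and 1, Cxcr2 2, 10 and 0, and Cxcr1 and Mmp9 had none. The summed level of the 12 markers was 838 to 999 CPM in monocytes, 58.4 to 128 in splenic CD4+ DCs, 23.2 to 37.0 in LN CD11b+ DCs, 1.83 to 2.99 in splenic CD8+ DCs and 1.52 to 2.51 in LN CD103+ DCs. From the list of other secondary or tertiary granule genes, Stfa2l1 and BC100530, stefin-family genes of mature neutrophils, had no count in monocytes. Of that list, which shares Cd177, Mmp8 and Mmp9 with the neutrophil markers, 9 were higher in monocytes than in each DC subtype (9.35% of all genes were). By the paper, sorts took live, single, lineage-negative CD45+ cells, and its mouse antibodies include those to Ly6G, CD3, B220, NK1.1, Gr1 and CD64. Its methods text does not say which of them served in the gate of each sort. The part of neutrophils or their precursors in the granule gene levels was not tested beyond these values.

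Of 9 markers of granulocyte and monocyte progenitors and of proliferation, 8 passed the filter, 0 were higher and 4 were lower in monocytes than in each DC subtype (9.35% and 8.81% of all genes), with a median log2 fold change of -2.02. Kit, the stem cell factor receptor, was at 2.83 ± 1.42 CPM in monocytes and between 94.4 and 593 in the DC subtypes, and the proliferation genes Mki67 (10.6 ± 1.34 CPM) and Top2a (6.06 ± 2.07 CPM) were also lower than in each, as was Cdk6. Ms4a3, a gene of granulocyte and monocyte progenitors, went the other way: it was below the filter and was counted in monocytes only, with 3, 10 and 16 counts.

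**Figure D5:**
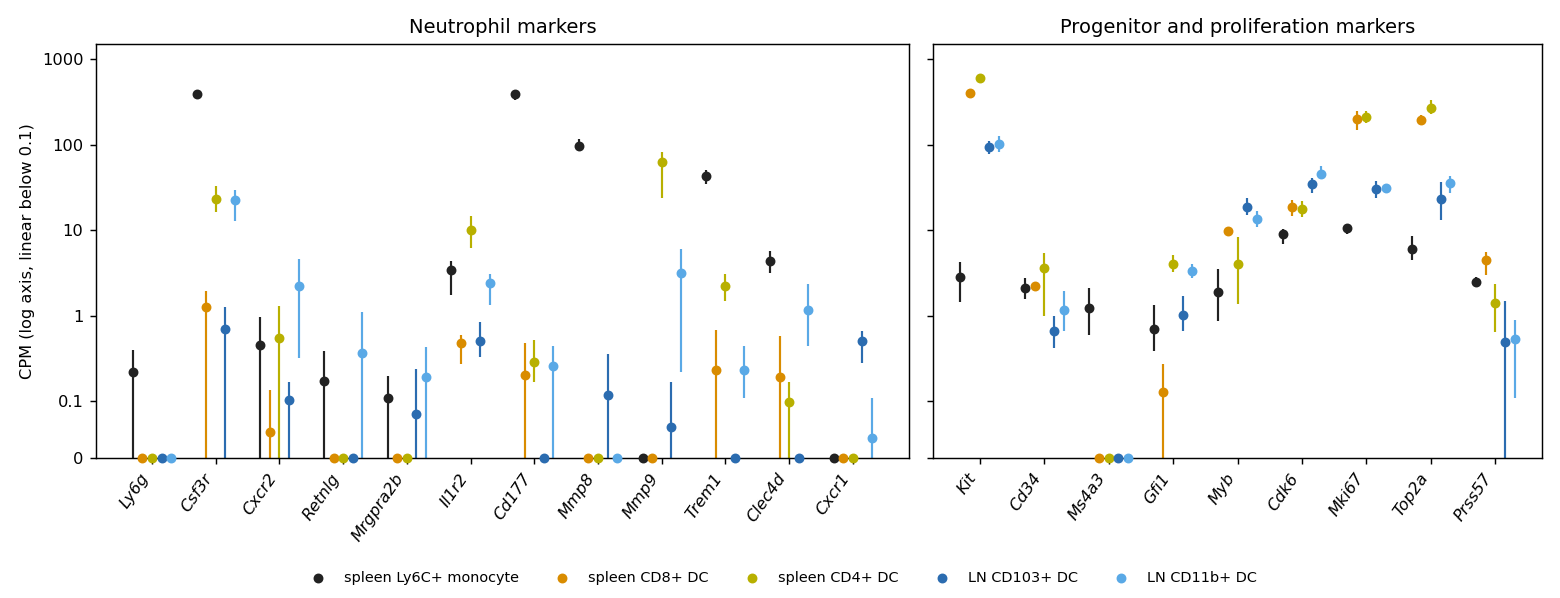
CPM (vertical axis, logarithmic above 0.1 and linear below) of 12 neutrophil markers and 9 progenitor and proliferation markers in the 5 subtypes; points are means of 3 libraries and lines run from the lowest to the highest library. Csf3r, Cd177, Mmp8 and Trem1 stand above all DC subtypes in monocytes, while Ly6g, Retnlg and Cxcr2 stay below 1 CPM there and Mmp9 is at 0.

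Other granule genes were counted by class, and the difference between the classes was not tested. Of 17 other secondary or tertiary granule genes, 14 passed the filter, 9 were higher in monocytes than in each DC subtype, 1 (Adam8) was lower (9.35% and 8.81% of all genes), and the median log2 fold change was 4.15, against -0.06 over all genes. Hp, haptoglobin, was at 718 ± 111 CPM in monocytes and at most 3.14 in a DC subtype. Chil3, a chitinase-like lectin, was at 823 ± 139 CPM and at most 16.8 in a DC subtype. Cybb, a subunit of the NADPH oxidase, Chil3, Itgam and Lyz2 were among the 9 and are genes that monocytes are known for. Chil3, Itgam and Lyz2 are also on the list of monocyte markers, and Cd177, Mmp8 and Mmp9 on that of neutrophil markers. The counts of these lists are thus not independent. Lyz1 and Lyz2 are near copies whose reads may be split. Of 8 other primary granule or promyelocyte genes, 6 passed, 1 was higher and 1 lower than in each DC subtype, which is near the shares of all genes, and the median was -0.47. The higher one was Ctsc (687 ± 44.9 CPM), the protease that activates the granule serine proteases. Bpi, a primary granule protein, had no count in monocytes, and Prss57, a serine protease of the same granules, was at 2.49 ± 0.328 CPM in monocytes and 4.50 ± 1.35 in splenic CD8+ DCs. The 8 protease genes that lie beside Elane and Ctsg in the genome (Cfd, Gzmb, Gzmc, Cma1, Mcpt1, Mcpt2, Mcpt4 and Mcpt8) had no count in monocytes.

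Factors listed as regulators of these genes were mostly higher in monocytes. The list also held Cebpb, Cebpd, Gfi1, Runx1, Klf4 and Irf8, which are not named above as drivers of the granule genes. Of the factors named above, Cebpe, Cebpa and Spi1 were higher than in each DC subtype and Myb was not. Of 10 listed, all passed the filter, 7 were higher than in each DC subtype (9.35% of all genes were), 0 were lower, and the median log2 fold change was 1.51, against -0.06 over all genes. Cebpe, the factor of the secondary granule stage, was low but present, with 23, 30 and 43 counts (4.37 ± 1.38 CPM), against 7 counts in the 12 DC libraries, 6 of them in LN CD11b+ DCs (adjusted p = 1.2e-06 against the mean, edgeR). Cebpb was at 768 ± 29.2 CPM, Cebpd at 83.9 ± 11.4 and Cebpa at 38.6 ± 1.68, each higher than in all 4 DC subtypes. Spi1, which encodes PU.1, was at 509 ± 37.2 CPM, against 217 to 242 in the DC subtypes. Myb, a factor of the primary granule stage, was at 1.91 ± 1.43 CPM and lower than the mean of the DC subtypes (adjusted p = 0.00033, edgeR). Gfi1, a repressor needed for neutrophil development, was at 0.699 ± 0.534 CPM.

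Among the receptors of the granule products, 12 of 15 passed the filter, 4 were higher in monocytes than in each DC subtype (9.35% of all genes were) and 0 were lower, with a median log2 fold change of 1.27, against -0.06 over all genes. The 4 were Tlr4 (26.9 ± 6.46 CPM), the receptor reported for S100A8 and S100A9, its co-receptor Cd14 (844 ± 81.6 CPM), Fpr2 (8.59 ± 2.18 CPM), the receptor of cathelicidin, and Lrp1 (970 ± 21.8 CPM), which takes up lactoferrin. Slc22a17, described as a receptor of lipocalin 2, was below the filter with 5 counts in monocytes. Of 14 other S100 genes, 8 passed, S100a6 (451 ± 16.5 CPM) and S100a10 (130 ± 20.9 CPM) were higher than in each DC subtype (9.35% of all genes were), 0 were lower, and the median was 0.82. Unlike S100a8 and S100a9, both were well above 0 in the DCs, at 53.8 to 198 and 8.59 to 49.0 CPM by subtype.

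Of 15 listed protease inhibitors, 9 passed the filter, with a median log2 fold change of -0.46. Wfdc17 (145 ± 13.6 CPM) was higher and Serpina3g (7.96 ± 1.82 CPM) lower than in each DC subtype, near the 9.35% and 8.81% of all genes. The list also holds stefins and cystatins (Stfa1, Stfa2, Stfa3, Cstb and Cst3), which inhibit cysteine proteases. These counts therefore do not describe inhibitors of the granule serine proteases alone. Slpi, the secretory inhibitor of elastase and cathepsin G, was at 58.5 ± 13.998 CPM in monocytes and 73.8 ± 41.2 in splenic CD4+ DCs, and near 1 CPM in both LN subtypes. Serpinb1a, an intracellular inhibitor of the same proteases, was at 22.97 ± 3.17 CPM in monocytes and at 931 ± 25.0 in LN CD103+ DCs.

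Markers of other cells, those of macrophages apart, were low in the monocyte libraries. The summed level was 24.2 to 29.7 CPM for 6 B cell markers, 0.787 to 1.46 for 6 T cell markers, 0.983 to 1.58 for 6 NK cell markers, 3.98 to 5.70 for 6 erythroid markers and 0.292 to 0.590 for 8 eosinophil and basophil markers, none of which was higher in monocytes than in each DC subtype. The B cell sum was mostly Cd79b (26.2 ± 2.74 CPM). Of 8 macrophage markers, 0 were higher and 4 lower than in each DC subtype (9.35% and 8.81% of all genes), with a sum of 184 to 398 CPM. Most of that sum was Hmox1, at 208 ± 103 CPM and up to 328 CPM in a library. Against the mean of the DC subtypes, Hmox1 was higher (adjusted p = 8.0e-07, edgeR) and 6 of the 8 were lower.

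The genes most like each of the 8 tested ones were sought by Pearson correlation of log2 CPM over the 15 libraries, 5 for each. For Ngp, 4 of the 5 were granule genes of the same set (S100a9, Camp, Ltf and S100a8), and for Ltf and S100a9 3 each. Those of S100a8 held none of the set and were Mmp8, Rab44, Igkv5-48, an immunoglobulin variable segment, Abca4 and ENSMUSG00000084956, which had no symbol. Mmp8 was also among the nearest 5 of Lcn2 and Prtn3. Mpo had Fcnb, which encodes ficolin B, as its nearest gene (r = 0.999; Fcnb was at 5.89 CPM in monocytes and 0 in DCs). Correlations ran from 0.966 to 0.999. As 3 libraries were high and 12 near 0 for each gene, r mainly restates that split and the depth of the libraries, and no test is given.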

How the data were processed

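Counts per gene and library, and counts by sequencing run, were deposited by the authors, who discarded reads under 30 nt, aligned the Ion Torrent reads by STAR 2.4.0j (mm10) and counted them on Ensembl 75 genes with featureCounts (Subread 1.5.2), without strand and for each overlapped gene. TPM was also deposited by the authors, computed from the counts and exon lengths. Symbols came from GENCODE vM21 (37607 of 38924 identifiers). Genes over 1 CPM in at least 3 libraries (14456) were fitted in edgeR 4.0.16 (R 4.3.3) by the quasi-likelihood test with a mean per subtype, TMM scaling and Benjamini-Hochberg adjustment over all genes (threshold 0.05). Ratios set mean monocyte CPM against pooled DC CPM, with exact conditional counting intervals at 95% and a floor of 3 counts over the group for 0. Intervals cover counting error only, and floors that of the DC counts only, as reads carried no molecular identifiers. The self-test on simulated counts ran before the fits. All 10 genes are named in the text, and other genes come from lists, by rule. Members and lists were chosen with earlier results of these data known. Per the paper, sorts took lineage-negative CD45+ cells, and its methods text does not list the stains of each gate.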

Additional observations from a re-analysis of the deposited data

How the results depend on the processing

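The alternatives were RLE size factors, DESeq2 1.42.0, no filter, filterByExpr, a minimum absolute log2 fold change of 1, limma 3.58.1 on log2(TPM + 1) and log2(TPM + 0.1), either monocyte run alone, the 12 DC libraries as 1 group, the replicate block and each library left out. Against the mean of the DC subtypes, no fold change of the 8 tested genes changed direction in the 217 combinations of gene and alternative with a value, and 1 lost its call (Mpo in DESeq2). Against the mean, 7650 genes were called, and 4972 with the added fold change, 4325 with the DC libraries as 1 group and 3893 with that and no filter, an alternative chosen after seeing the data; leaving out a library gave 6162 to 7841. Granule genes called numbered 8 in each of the 5 comparisons and 1 to 8 with a library left out. The value was 1 without any monocyte replicate, as 7 of the genes then fell below the filter, and 8 without each DC library. With the genes of the full filter kept, also chosen after seeing the data, it was 8 without each monocyte replicate. Monocyte run 2 alone and filterByExpr each left Mpo below the filter, so that 7 were called. The ratio of secondary to primary summed TPM ran from 23.6 to 29.5 with a monocyte replicate left out. Replicate numbers did not pair monocyte with DC libraries: in 0 of 12 pairs of a monocyte library with a DC library of the same number did deviations correlate above 0.1, and 3 of 12 correlated best with their own number. Among the DC libraries, which are not compared here, 14 of 18 such pairs were above 0.1, with all 3 pairs above it in 4 of the 6 pairs of subtypes. With the replicate block, 8070 genes and 8 granule genes were called. Without the filter the prior degrees of freedom of the fit with a mean per subtype were infinite, so that its p values rest on a common trend and are smaller than those of the other fits. Elane and Ctsg rest on 42 and 3 counts in monocytes, which limits what can be said of them.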

Other observations

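Some genes known from neutrophil granules had higher levels in all or some DC subtypes than in the monocytes. Adam8, a membrane protease also stored in granules, was at 27.7 ± 5.70 CPM (SD, n = 3) in monocytes and 182 to 1005 in the DC subtypes. Cd63, a tetraspanin of primary granules and lysosomes, was at 2.59 ± 1.53 CPM in monocytes, 448 ± 27.8 in LN CD103+ DCs and 290 ± 21.5 in LN CD11b+ DCs. Adam8 and Cd63 were each lower in monocytes than in all 4 DC subtypes (edgeR, largest adjusted p 1.6e-07 and 0.013). Mmp9, the gelatinase of tertiary granules, had no count in the 3 monocyte libraries. It was at 62.3 ± 33.4 CPM in splenic CD4+ DCs, 3.16 ± 2.90 in LN CD11b+ DCs and under 0.1 in the other 2 DC subtypes. Mmp9 did not pass the test against the mean of the DC subtypes (adjusted p = 0.9999, edgeR), a mean that includes the 2 subtypes near 0. By single DC subtype, its log2 fold changes ran from -11.8 to 0, with a smallest adjusted p of 1.7e-06 (edgeR). Cst3, cystatin C, an inhibitor of cysteine proteases, was on the list of inhibitors and not on those of granule genes. Cst3 was at 2220 ± 66.7 CPM in monocytes, 17791 in splenic CD8+ DCs, 12811 in LN CD103+ DCs and 5339 in LN CD11b+ DCs. In splenic CD4+ DCs it was at 1533 CPM, below the monocytes.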
